A study of Mus musculus with 11 samples.

Results

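Ribosome footprints of 7 genes of the integrated stress response were followed in mouse cortex after stroke: Atf4, Slc3a2, Slc7a5, Asns, Phgdh, Nars and Aars. The genes were taken from a list of the response (its transcription factor, amino acid transport, serine synthesis and tRNA charging) and had to be present in the deposited count table. They are 7 of the 4338 genes of that table, and all 7 were among the 3835 genes tested. Atf4 footprints averaged 90.5 CPM (counts scaled to the library total) in ischaemic cortex against 43.1 in sham and 42.6 in contralateral cortex, and 3 of the 4 ischaemic libraries lay above every other library. The fourth held a single Atf4 count. For the other 6 genes the fitted differences between groups lay between -0.21 and 0.59 on the log2 scale. No gene of the 7 passed an adjusted p of 0.05 in any of the 3 comparisons.

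The animals were wild-type C57BL6 mice, 7 to 8 weeks old, and the labels name no transgene or drug. In the stroke animals a filament blocked the right middle cerebral artery for 35 min, and cortex was taken after 3 h of reperfusion from the occluded side (ipsilateral, 4 libraries, replicates 2, 4, 5 and 6) and from the opposite side (contralateral, 4 libraries, replicates 1, 4, 5 and 6). Sham animals were anaesthetised and had their arteries exposed with no filament (3 libraries, replicates 1, 2 and 5), and the side of their cortex is not stated. The replicate number marks the day of surgery, and the labels do not say whether ipsilateral and contralateral libraries of one day share an animal. For the 4 ipsilateral samples the tissue label disagrees with the title and gives the opposite side, and the title was used. Isoflurane anaesthesia was common to the stroke and sham animals.

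The integrated stress response begins with kinases that phosphorylate the initiation factor eIF2 when amino acids are short, the endoplasmic reticulum is overloaded or haem is low. Initiation on most messages then slows, whereas ribosomes that have passed the short upstream reading frames of the Atf4 message reach its coding sequence more often. ATF4 is a transcription factor that pairs with C/EBP proteins on the DNA of genes for amino acid uptake, amino acid synthesis and tRNA charging. In brain, eIF2 is known to become phosphorylated early in reperfusion after ischaemia.

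A footprint is the stretch of message that a ribosome shields from nuclease, so the count of a gene reflects both how much of its message is present and how densely ribosomes occupy it. Total RNA was not analysed here, and these 2 quantities cannot be told apart. The samples are bulk tissue, and fewer cells of a type and less RNA per cell cannot be told apart either. Counting each gene once, the shallowest library (ipsilateral replicate 4) held 35068 counts and the deepest (contralateral replicate 6) held 571351. A single count was therefore worth 28.6 CPM in the former and 1.73 CPM in the latter. The 7 genes together took between 0.169% and 0.217% of the counts of a library. Neuronal markers were all present (13 of 13), with a summed level of 18574 to 20619 CPM in sham, 18558 to 21132 in contralateral and 17560 to 20032 CPM in ipsilateral libraries. On the first principal component, which held 30.3% of the variance, ipsilateral replicate 4 stood at 49.3 and the other 10 libraries between -8.79 and 3.84. Sham replicate 2, the second shallowest library, stood at -32.7 on the second component.

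The messages of the 7 genes differ in their leaders, the stretch before the start codon. The leader of Atf4 (transcript Atf4-201, mm10 chromosome 15, 80255184 to 80257541, plus strand) is 594 nt long, longer than that of 94.6% of the 4253 coding transcripts that represent genes in the table, whose median is 179 nt. It holds 3 upstream AUG codons. The first lies 475 nt before the main start and opens a reading frame of 36 codons, and the second lies 196 nt before it and opens one of 3 codons. The third lies 97 nt before the main start, opens a frame of 59 codons in another reading phase and runs 83 nt into the coding sequence, the arrangement for which Atf4 is known. Of the other 6 messages, those of Nars (3 upstream AUG codons) and Asns (2) also held such starts, and those of Slc3a2, Slc7a5, Aars and Phgdh held 0. Of all coding representatives, 46.7% held at least 1.

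The leader makes up 34.4% of the Atf4 transcript. The deposited counts are per transcript, so footprints on the upstream frames and on the coding sequence of Atf4 cannot be told apart.

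The DNA element that ATF4 and C/EBP proteins share was searched as TGATGNAAN on both strands of the RefSeq promoter windows of build GRCm38.p6, from 250 bases before to 50 bases after each start. A match was found in 4.5% of 27025 genes with a window. Of the 7 genes, 5 had a window. That of Asns held 1 match. That of Aars held 2, starting 113 bases before and 8 bases after the start. The windows of Atf4, Slc3a2 and Phgdh held 0, which says only that these letters are not in these windows. Slc7a5 and Nars had no window. To show how the element reads in these genes, a match of each is given with those of Gars and Yars, the glycyl- and tyrosyl-tRNA synthetases, which are also in the count table. Each line reads 5′ to 3′ along the gene's strand, and the capitals mark the match.
Asns (chr6:7693214-7693242, minus strand, match starting 23 bases before the start): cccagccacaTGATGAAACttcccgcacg
Aars (chr8:111033840-111033858, plus strand, opposite-strand match starting 8 bases after the start): agcgggtcacTTTTCATCA
Gars (chr6:55037960-55037988, plus strand, opposite-strand match starting 31 bases before the start): tggctgcgctATTTCATCAtgcaccgggc
Yars (chr4:129189896-129189924, plus strand, match starting 3 bases after the start): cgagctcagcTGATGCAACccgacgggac

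Of the longer pathway lists, cytosolic tRNA synthetases held a match in 5 of 16 genes with a window, the asparagine, proline and related enzymes in 4 of 10, amino acid transporters in 3 of 15 and serine and one-carbon enzymes in 0 of 11. Regulators of the stress response held one in 7 of 17, genes of eIF2 and its kinases in 1 of 15 and mitochondrial tRNA synthetases in 0 of 14. The share over all genes with a window was 4.5%. A match is a description of letters and not evidence that a factor binds there.

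Atf4 encodes the transcription factor of the response. Sham replicates 1, 2 and 5 held 26.8, 30.5 and 72.2 CPM, from 7, 2 and 14 counts. Contralateral replicates 1, 4, 5 and 6 held 39.4, 52.1, 42.7 and 36.3 CPM, from 6, 7, 13 and 21 counts. Ipsilateral replicates 2, 4, 5 and 6 held 102, 114, 12.0 and 134 CPM, from 14, 4, 1 and 16 counts. Ipsilateral replicates 2, 4 and 6 thus lay above all 7 other libraries, and replicate 5 lay below all of them, so the groups overlap. The single count of replicate 5 has a 95% Poisson interval of 0.305 to 67.1 CPM, which covers counting error only and reaches above 6 of the 7 sham and contralateral values. For ipsilateral replicate 4 the interval of its 4 counts was 31.1 to 293 CPM.

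**Figure D1:**
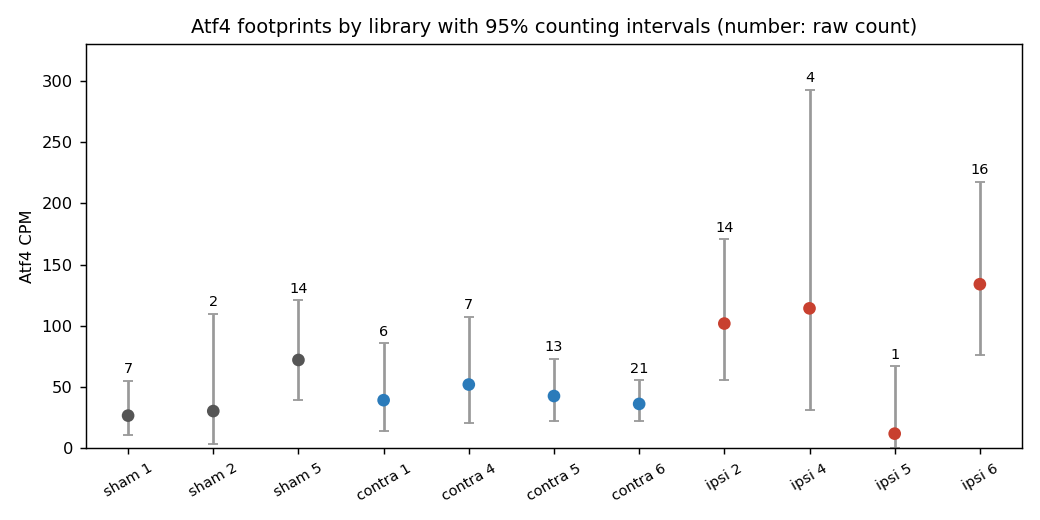
Atf4 level in CPM (y axis) in each of the 11 libraries (x axis; grey sham, blue contralateral, red ipsilateral), with exact 95% Poisson intervals as bars and the raw count above each. Ipsilateral replicates 2, 4 and 6 stand at 102 to 134 CPM, and ipsilateral replicate 5 stands at 12.0 CPM on 1 count.

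As group means, Atf4 was at 43.1 ± 25.2 CPM in sham (SD, n = 3), 42.6 ± 6.85 in contralateral (n = 4) and 90.5 ± 54.0 in ipsilateral cortex (n = 4). The fitted difference from sham was 1.04 ± 0.49 (log2, SE; 95% interval 0.05 to 2.03) by edgeR's quasi-likelihood test, with a Benjamini-Hochberg adjusted p of 0.624. The difference from contralateral was 1.16 ± 0.43 (0.29 to 2.03; edgeR adjusted p = 0.409). Contralateral and sham cortex differed by -0.12 ± 0.48 (edgeR adjusted p = 1.00). Atf4 was therefore about 2.06-fold the sham level and 2.23-fold the contralateral level, with intervals that reach from near equality to 4.09-fold, and neither difference passed the adjusted threshold. Atf4 passed the filter on low counts only through ipsilateral replicates 2, 4 and 6, so these values are not independent of that filter.

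The libraries do not weigh equally on these values. Without ipsilateral replicate 5 the difference of Atf4 from sham was 1.38 (edgeR adjusted p = 0.230) and that from contralateral 1.50 (adjusted p = 0.0725). Without ipsilateral replicate 6 they were 0.72 (edgeR adjusted p = 0.907) and 0.83 (adjusted p = 0.934). Sham replicate 5, the highest sham library, moved the difference from sham the other way: without it the value was 1.71, and without sham replicate 1 it was 0.61. With surgery day as a block, the difference from sham was 0.65 (edgeR adjusted p = 0.938) and that from contralateral 1.09 (adjusted p = 0.632). Without the shallowest pair of libraries, ipsilateral replicate 4 and sham replicate 2, the differences were 0.92 (edgeR adjusted p = 0.776) and 1.11 (adjusted p = 0.513).

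Within a surgery day, Atf4 was higher in ipsilateral than in contralateral cortex on 2 of 3 days. The pairs were 114 against 52.1 CPM on day 4, 12.0 against 42.7 on day 5 and 134 against 36.3 on day 6. Against sham, ipsilateral Atf4 stood at 102 and sham at 30.5 CPM on day 2, and at 12.0 and 72.2 CPM on day 5. Day 5 was the day on which ipsilateral Atf4 was lower, and its sham library was the highest of its group.

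Slc3a2 and Slc7a5 encode the heavy and light chains of a heterodimer that carries large neutral amino acids across the cell membrane. The heavy chain, Slc3a2 (Slc3a2-202, chromosome 19, 8706882 to 8723369, minus strand), held 352, 396 and 495 CPM in sham replicates 1, 2 and 5. It held 387, 499, 368 and 412 CPM in contralateral replicates 1, 4, 5 and 6. Ipsilateral replicates 2, 4, 5 and 6 held 495, 314, 518 and 770 CPM. Ipsilateral replicate 6 was the highest of all 11 libraries and ipsilateral replicate 4 the lowest, on 11 counts, so the groups overlap.

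The mean of Slc3a2 was 414 ± 73.3 CPM in sham, 416 ± 57.8 in contralateral and 524 ± 188 in ipsilateral cortex. Its fitted difference was 0.41 ± 0.21 from sham (95% interval -0.02 to 0.84; edgeR adjusted p = 0.671) and 0.42 ± 0.19 from contralateral (0.03 to 0.80; adjusted p = 0.594). Contralateral and sham differed by -0.01 ± 0.20 (edgeR adjusted p = 1.00). Without ipsilateral replicate 6 the differences were 0.16 and 0.17 (adjusted p = 0.960 and 0.964 by edgeR). With the day block the difference from sham was 0.26 (edgeR adjusted p = 0.938) and that from contralateral 0.41 (adjusted p = 0.693).

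The light chain, Slc7a5 (Slc7a5-201, chromosome 8, 121881150 to 121907694, minus strand), held 53.5, 137 and 77.3 CPM in sham replicates 1, 2 and 5. It held 78.7, 67.0, 75.6 and 51.9 CPM in contralateral replicates 1, 4, 5 and 6. Ipsilateral replicates 2, 4, 5 and 6 held 65.5, 57.1, 60.2 and 176 CPM, on 9, 2, 5 and 21 counts. As for the heavy chain, ipsilateral replicate 6 was the highest library of all, while the other 3 ipsilateral libraries lay inside the contralateral range.

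Slc7a5 averaged 89.3 ± 43.1 CPM in sham, 68.3 ± 12.0 in contralateral and 89.7 ± 57.6 in ipsilateral cortex. Its fitted difference was 0.38 ± 0.39 from sham (edgeR adjusted p = 0.892) and 0.59 ± 0.35 from contralateral (95% interval -0.12 to 1.297; adjusted p = 0.721). Without ipsilateral replicate 6 both were below 0, at -0.27 and -0.06. Within a surgery day, ipsilateral Slc7a5 was higher than sham on 0 of 2 days (65.5 against 137 CPM on day 2, 60.2 against 77.3 on day 5). It was higher than contralateral on 1 of 3 days, day 6. Contralateral and sham differed by -0.21 ± 0.35. The ratio of heavy to light chain, per kilobase of coding sequence, was 2.62 to 5.96 in sham, 4.41 to 7.19 in contralateral and 3.97 to 7.79 in ipsilateral libraries, ranges that overlap.

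**Figure D2:**
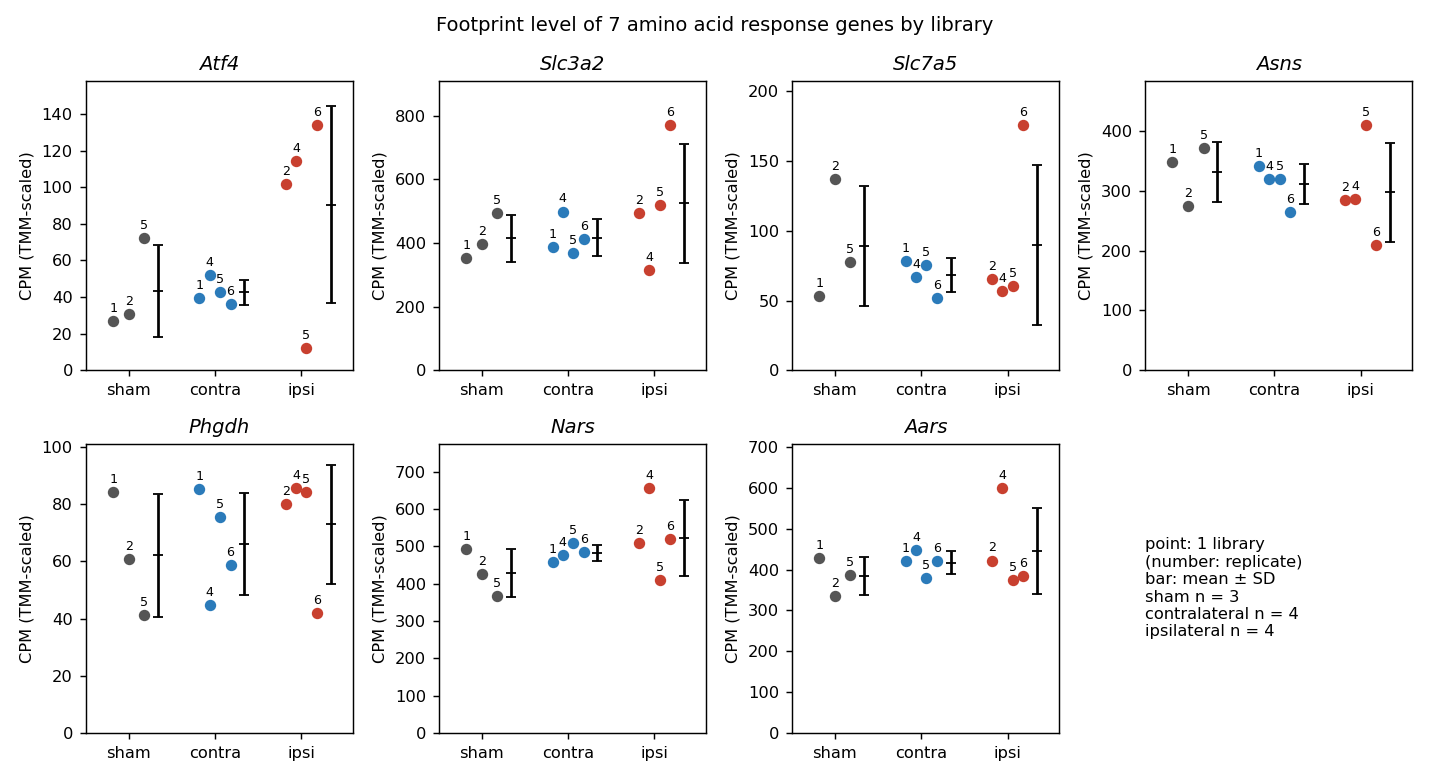
Level in CPM after TMM scaling (y axes, from 0) of the 7 genes in sham, contralateral (contra) and ipsilateral (ipsi) libraries (x axes), 1 point per library with its replicate number; bars are mean ± SD (n = 3, 4 and 4). For Slc3a2 and Slc7a5 ipsilateral replicate 6 is the highest point (770 and 176 CPM), and for every gene the groups overlap.

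Asns encodes asparagine synthetase, which makes asparagine from aspartate and glutamine and is a textbook target of ATF4. Asns (Asns-201, chromosome 6, 7675169 to 7693254, minus strand) held 348, 274 and 371 CPM in sham replicates 1, 2 and 5. It held 341, 320.2, 319 and 265 CPM in contralateral replicates 1, 4, 5 and 6, and 284, 286, 409.6 and 209 CPM in ipsilateral replicates 2, 4, 5 and 6. The highest and the lowest of all 11 libraries were both ipsilateral, replicates 5 and 6.

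The Asns mean was 331 ± 50.6 CPM in sham, 311 ± 32.7 in contralateral and 297 ± 83.0 in ipsilateral cortex. Its fitted difference was -0.21 ± 0.23 from sham (95% interval -0.68 to 0.25; edgeR adjusted p = 0.892) and -0.07 ± 0.21 from contralateral (-0.50 to 0.36; adjusted p = 0.995). Both values rest on ipsilateral replicate 6, the lowest library: without it they were -0.06 and 0.10. With surgery day as a block they were -0.04 and -0.01, and on both days with an ipsilateral and a sham library Asns was higher in the ipsilateral one (284 against 274 CPM on day 2, 409.6 against 371 on day 5). Ipsilateral replicate 5 had the highest Asns level and the lowest Atf4 level, and replicate 6 the reverse.

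Phgdh encodes phosphoglycerate dehydrogenase, the first enzyme of serine synthesis from a glycolytic intermediate. Phgdh (Phgdh-201, chromosome 3, 98313170 to 98339990, minus strand) held 84.1, 60.9 and 41.2 CPM in sham replicates 1, 2 and 5. It held 85.3, 44.7, 75.6 and 58.8 CPM in contralateral replicates 1, 4, 5 and 6, and 80.1, 85.7, 84.3 and 41.9 CPM in ipsilateral replicates 2, 4, 5 and 6. Each group spanned nearly the same range. The means were 62.1 ± 21.5, 66.1 ± 17.98 and 73.0 ± 20.9 CPM, and the fitted differences of ipsilateral cortex were 0.11 ± 0.41 from sham and 0.08 ± 0.37 from contralateral (edgeR adjusted p = 0.991 and 0.995).

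Phgdh values are uncertain in another way. Of the 28-nt words in its transcript, 76.1% also occur in other annotated genes, most often Gm7901, Gm9347 and Gm8341, and no source used here says how reads with several matches were counted. The share was 0 for Atf4, Nars and Asns, 0.0287% for Slc7a5, 5.38% for Slc3a2 and 22.7% for Aars, all of the latter in Exosc6.

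Nars and Aars encode the cytosolic enzymes that charge tRNA with asparagine and alanine. Nars (Nars-201, chromosome 18, 64499647 to 64516652, minus strand) held 493, 426.5 and 366 CPM in sham replicates 1, 2 and 5. It held 459, 477, 509.7 and 484 CPM in contralateral replicates 1, 4, 5 and 6, and 509.4, 657, 409.6 and 519 CPM in ipsilateral replicates 2, 4, 5 and 6. Ipsilateral replicates 2, 4 and 6 lay above every sham library, but replicate 5 lay inside the sham range, and the contralateral libraries had the narrowest spread.

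The Nars means were 429 ± 63.6, 482 ± 21.0 and 524 ± 102 CPM in sham, contralateral and ipsilateral cortex. The fitted differences of ipsilateral cortex were 0.24 ± 0.19 from sham (95% interval -0.15 to 0.64; edgeR adjusted p = 0.8287) and 0.08 ± 0.17 from contralateral (-0.27 to 0.43; adjusted p = 0.983). Contralateral and sham differed by 0.17 ± 0.18 (edgeR adjusted p = 0.966).

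Aars (Aars-201, chromosome 8, 111033144 to 111057664, plus strand) held 428, 335 and 387 CPM in sham replicates 1, 2 and 5. It held 419.7, 447, 378 and 420.2 CPM in contralateral replicates 1, 4, 5 and 6, and 422, 600.0, 373 and 385 CPM in ipsilateral replicates 2, 4, 5 and 6. Apart from ipsilateral replicate 4, with 21 counts, the ipsilateral libraries lay inside the sham range. The means were 383 ± 46.6, 416 ± 28.4 and 445 ± 105 CPM, and the fitted differences of ipsilateral cortex were 0.12 ± 0.20 from sham and 0.04 ± 0.18 from contralateral (edgeR adjusted p = 0.986 and 0.999). The Aars transcript shares 1326 nt with Exosc6 on the same strand, so reads in that stretch could belong to either gene.

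**Figure D3:**
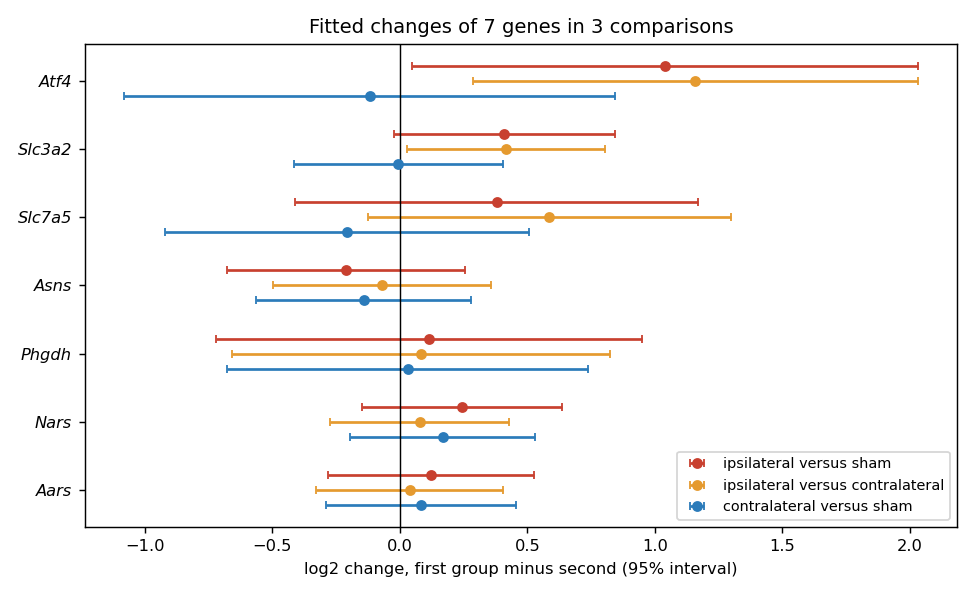
Fitted log2 difference (x axis, first group minus second) of each of the 7 genes (y axis) in the 3 comparisons, with 95% intervals from edgeR's quasi-likelihood fit. The intervals of Atf4 against sham and contralateral and of Slc3a2 against contralateral lie above 0, and all others cross it.

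Counted over the 7 genes, ipsilateral cortex against sham gave 0 genes past an adjusted p of 0.05 by edgeR, where 0.104% of all tested genes passed, and 0 by limma-voom. DESeq2 called 0 of the 4 genes to which it gave an adjusted p, and gave none for Atf4, Slc7a5 and Phgdh. At an unadjusted p under 0.05 the count was 1 of 7 (Atf4) by edgeR, where 7.72% of all genes passed. By DESeq2 it was 0, and by limma-voom 1. Ipsilateral against contralateral cortex gave 0 of 7 past the adjusted threshold, where 0.365% of all genes passed, 0 by limma-voom and 0 of 5 by DESeq2, which gave no adjusted p for Atf4 and Phgdh. The count at an unadjusted p under 0.05 was 2 of 7 (Atf4 and Slc3a2), where 7.64% of all genes passed. Contralateral against sham cortex gave 0 of 7 by either rule with edgeR, DESeq2 and limma-voom, where 0% and 5.74% of all genes passed by edgeR.

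No gene of the 7 had groups that do not overlap in any comparison, whereas 7.17%, 4.41% and 7.59% of all tested genes had such groups in the comparisons of ipsilateral with sham, ipsilateral with contralateral and contralateral with sham. The fitted value was above 0 for 6 of 7 genes against sham, with a median of 0.24, and for 6 of 7 against contralateral, with a median of 0.08. Over all tested genes 50.0% and 51.3% were above 0, with medians of -0.0001 and 0.01. The count against contralateral rests on ipsilateral replicate 4: without it 4 of 7 were above 0, with a median of 0.04, and without it and sham replicate 2 the count was 4 of 7, with a median of 0.03. These ipsilateral comparisons share the 4 ipsilateral libraries. Between contralateral and sham cortex 3 of 7 were above 0 (median -0.01), against 49.9% of all genes.

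Compared per kilobase of coding sequence, the 4 genes Nars, Slc3a2, Asns and Aars had higher means than the other 3 in every group. In sham cortex Nars stood at 256 ± 38.0 CPM per kilobase, Slc3a2 at 244 ± 43.2, Asns at 197 ± 30.1 and Aars at 132 ± 16.05. Slc7a5 followed at 58.1 ± 28.03, Atf4 at 41.2 ± 24.1 and Phgdh at 38.8 ± 13.4. The sham libraries of neighbours in this order overlapped except at 2 steps: those of Aars all lay below those of Asns, and those of Slc7a5 all lay below those of Aars.

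In contralateral cortex the order was the same down to Aars (143 ± 9.76), with Slc7a5 at 44.5 ± 7.82, Phgdh at 41.3 ± 11.2 and Atf4 at 40.7 ± 6.54. In ipsilateral cortex Nars (313 ± 60.8) and Slc3a2 (309 ± 111) stayed close, Asns stood at 177 ± 49.3 and Aars at 153 ± 36.3, and Atf4 at 86.5 ± 51.6 came next, ahead of Slc7a5 (58.4 ± 37.5) and Phgdh (45.6 ± 13.1), within their spread. Over all 11 libraries Nars was at the 83.8th percentile of 3782 tested coding genes, Slc3a2 at the 82.8th, Asns at the 73.9th and Aars at the 66.7th. Atf4 was at the 36.0th, Slc7a5 at the 33.1st and Phgdh at the 24.96th percentile. Divided by transcript length instead, the same 4 genes had higher means than the other 3 in every group, but the order within them changed. In sham cortex Asns then stood at 165 CPM per kilobase of transcript, Nars at 159 and Slc3a2 at 147, followed by Aars at 66.7, Phgdh at 32.8, Slc7a5 at 25.4 and Atf4 at 25.003. Atf4, Slc7a5 and Phgdh are also the genes with few counts, with sums over the 11 libraries of 105 for Atf4, 149 for Slc7a5 and 136 for Phgdh. The table holds no transcript with a summed count under 101, so Atf4 lies just inside it. The Atf4 sum is made of 23 sham, 47 contralateral and 35 ipsilateral counts. Its presence in the table thus rests in part on the ipsilateral libraries, where its mean was highest. The filter before testing asked for a minimum level in 3 libraries, and Atf4 reached it in ipsilateral replicates 2, 4 and 6 only. The ipsilateral difference of Atf4, its interval and its p are therefore not independent of this floor and this filter.

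**Figure D4:**
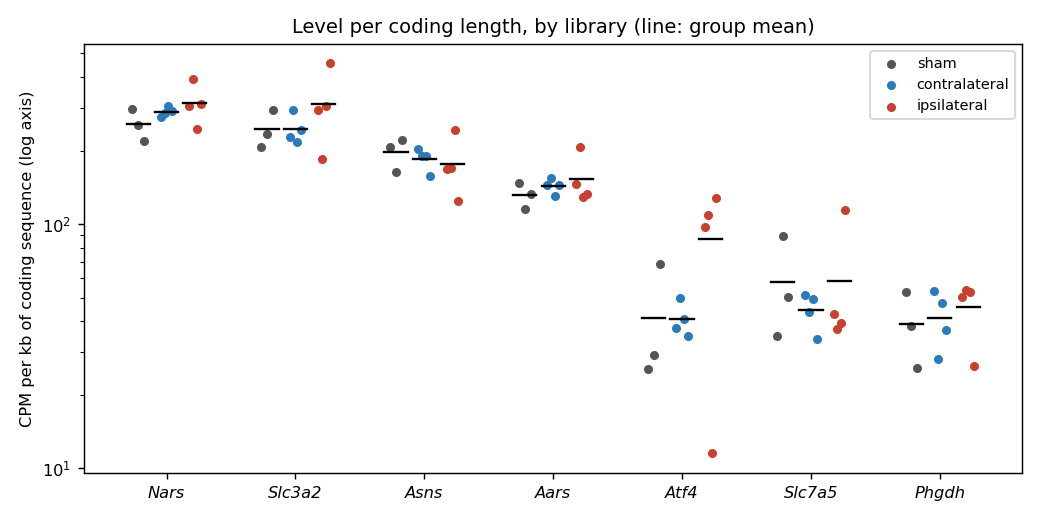
CPM per kilobase of coding sequence (y axis, log scale) of the 7 genes (x axis), 1 point per library coloured by group, with a line at each group mean. Nars, Slc3a2, Asns and Aars lie above Slc7a5 and Phgdh, and the points of Atf4 span 11.5 to 128.

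Across the 11 libraries, the log2 levels of the 7 genes did not move as one. Nars and Aars had a Pearson r of 0.75 (Spearman rho 0.43), which was 0.47 without the 2 libraries farthest from the median. Slc3a2 and Slc7a5 had r = 0.56 (rho 0.32), and -0.13 without the 2 farthest libraries. Atf4 and Asns had r = -0.63 (rho -0.44), and -0.11 without the 2 farthest. The points share libraries and their depth, and these values are descriptions. Among the tested genes whose pattern was most like that of Atf4 were Ccn2 (r = 0.88), Tspyl2 (0.85), Sdf2 (0.85) and Sun2 (0.84). Among those most like the mean of the 7 genes were Hyou1, a chaperone of the endoplasmic reticulum (r = 0.92), Rpl13 (0.89), Clic4 (0.89) and Pvalb (0.88). These were picked from the highest values of all tested genes over 11 libraries.

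Other regulators of the stress response were thinly covered. Of 19 listed, 4 were in the table: Atf4, Ddit4, Ppp1r15b and Vldlr. Ddit4, an inhibitor of mTORC1 signalling, was at 71.9 ± 19.9 CPM in sham, 104 ± 56.0 in contralateral and 151 ± 105 in ipsilateral cortex (0.96 ± 0.48 against sham, edgeR adjusted p = 0.664). Ppp1r15b, a subunit that directs phosphatase to eIF2, stood at 71.5 ± 8.34 CPM in sham and 69.3 ± 27.1 in ipsilateral cortex. Vldlr, a lipoprotein receptor, stood at 113 ± 36.4 and 128 ± 22.7 CPM. Ddit3, Atf3, Trib3, Chac1 and Ppp1r15a, well known targets of the response, were not analysed here. None of the 4 passed edgeR's adjusted threshold in a comparison. At an unadjusted p under 0.05 Atf4 alone passed, in both ipsilateral comparisons. There 7.72% (against sham) and 7.64% (against contralateral) of all tested genes passed.

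Of 18 genes of eIF2, its kinases and their regulators, 8 were tested. Against sham, 1 of the 8 had a fitted value above 0 (median -0.18), where 50.0% of all tested genes did. Against contralateral it was 3 of 8 (median -0.18), where 51.3% did. Between contralateral and sham cortex 2 of 8 were above 0 and 6 below (median -0.12), where 49.9% of all tested genes were above 0. Gcn1l1, which encodes the GCN1 protein that activates the amino acid sensing kinase GCN2, was at 151 ± 28.9 CPM in sham, 118 ± 27.3 in contralateral and 88.9 ± 17.4 in ipsilateral cortex. The ipsilateral libraries of Gcn1l1 all lay below the sham libraries (-0.69 ± 0.32, edgeR adjusted p = 0.597). Gcn1l1 was the 1 of 8 with no overlap in that comparison, against 7.17% of all tested genes. Impact, an inhibitor of GCN2, stood at 409 ± 103 and 366 ± 109 CPM in sham and ipsilateral cortex. Eif2s3x, a subunit of eIF2, stood at 115 ± 37.5 and 99.3 ± 10.1 CPM.

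Of 20 amino acid transporter genes, 11 were tested, Slc3a2 and Slc7a5 among them. Against sham 10 of 11 had a fitted value above 0 (median 0.31), where 50.0% of all tested genes did. Against contralateral 9 of 11 did (median 0.33), where 51.3% of all tested genes did. Without Slc3a2 and Slc7a5 the counts were 8 of 9 (median 0.303) and 7 of 9 (median 0.296). The median between contralateral and sham was -0.01. By level the leading ones outside the 7 were Slc7a8, another light chain that pairs with Slc3a2, and Slc38a1 and Slc38a2, glutamine carriers. Slc7a8 was at 155 ± 23.0 CPM in sham, 167 ± 43.9 in contralateral and 211 ± 32.8 in ipsilateral cortex (0.45 ± 0.26 against sham, edgeR adjusted p = 0.707). Slc38a2 was at 169 ± 17.7, 155 ± 30.7 and 224 ± 67.7 CPM, and Slc38a1 at 187 ± 53.4, 182 ± 57.5 and 177 ± 45.3 CPM. Slc6a9, the glycine transporter GlyT1, named after its values were seen, was at 73.9 ± 54.9 CPM in sham, 47.8 ± 8.91 in contralateral and 98.5 ± 24.4 in ipsilateral cortex. The ipsilateral libraries of Slc6a9 all lay above the contralateral ones (0.94 ± 0.37, edgeR adjusted p = 0.458) and overlapped the sham ones (0.80 ± 0.42, adjusted p = 0.672). Slc6a9 was the 1 of 11 transporters with no overlap against contralateral, where 4.41% of all tested genes had none. No transporter passed edgeR's adjusted threshold in any comparison, and at an unadjusted p under 0.05 the counts were 0 of 11 against sham and 2 of 11 (Slc3a2 and Slc6a9) against contralateral, where 7.72% and 7.64% of all tested genes passed.

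Of 12 serine and one-carbon genes, 5 were tested, Phgdh among them, with medians of 0.08 against sham and 0.08 against contralateral. Psat1, the enzyme after Phgdh in serine synthesis, was at 187 ± 50.0 CPM in sham, 174 ± 26.9 in contralateral and 248 ± 49.7 in ipsilateral cortex (0.49 ± 0.23 against contralateral, edgeR adjusted p = 0.600). Aldh1l1, an astrocytic folate enzyme, stood at 169.8, 172 and 171 CPM. Mat2a, which makes S-adenosylmethionine, stood at 169.7, 163 and 207 CPM. Of 13 asparagine, proline and related genes, 4 were tested (Asns, Got1, Got2 and Bcat1). All 4 had a fitted value below 0 in ipsilateral against sham cortex (median -0.24), where 50.0% of all tested genes were above 0. The same 4 were below 0 in contralateral against sham cortex (median -0.17), and 3 of 4 were below 0 in ipsilateral against contralateral cortex (median -0.11). In these comparisons 49.9% and 51.3% of all tested genes were above 0. Got1, the cytosolic aspartate aminotransferase, was at 939 ± 97.4, 744 ± 28.5 and 885 ± 119 CPM.

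Of 23 cytosolic synthetases and their scaffold genes, 18 were tested, Nars and Aars among them. Against sham 9 had a fitted value above 0 and 9 below (median -0.01), where 50.0% of all tested genes were above 0. Against contralateral 11 were above 0 (median 0.03), where 51.3% of all tested genes were. Eprs, which charges tRNA with glutamate and proline, was at 193 ± 27.1 CPM in sham, 232 ± 19.0 in contralateral and 256 ± 25.7 in ipsilateral cortex, with every ipsilateral library above the sham libraries (0.40 ± 0.24, edgeR adjusted p = 0.730). Cars, the cysteinyl enzyme, named after its values were seen, was at 89.9 ± 20.4 CPM in sham, 60.5 ± 18.8 in contralateral and 63.4 ± 12.9 in ipsilateral cortex, with every ipsilateral library below the sham libraries (-0.47 ± 0.37, edgeR adjusted p = 0.8287). Eprs and Cars were the 2 of 18 with no overlap between ipsilateral and sham cortex, against 7.17% of all tested genes. The contralateral libraries of Cars also all lay below the sham libraries (-0.55 ± 0.31, edgeR adjusted p = 0.911). Cars was the 1 of 18 with no overlap in that comparison, against 7.59% of all tested genes. Gars stood at 321 ± 3.80, 291 ± 49.6 and 300.0 ± 25.2 CPM, and Sars, the seryl enzyme, at 286 ± 79.7, 260.0 ± 48.1 and 233 ± 66.4 CPM. Yars, named after its values were seen, was lowest in contralateral cortex, at 168 ± 12.7 CPM against 254 ± 62.9 in sham and 231 ± 31.9 in ipsilateral cortex. Its difference of contralateral from sham was -0.53 (edgeR adjusted p = 0.845). The ipsilateral libraries of Yars all lay above the contralateral ones (0.45 ± 0.23, edgeR adjusted p = 0.655). Yars was the 1 of 18 with no overlap there, against 4.41% of all tested genes. No synthetase passed edgeR's adjusted threshold in any comparison. At an unadjusted p under 0.05 Yars was the 1 of 18 that passed, between contralateral and sham, where 5.74% of all tested genes passed. Of 17 mitochondrial synthetases 1 was in the table (Iars2), and it was not tested.

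**Figure D5:**
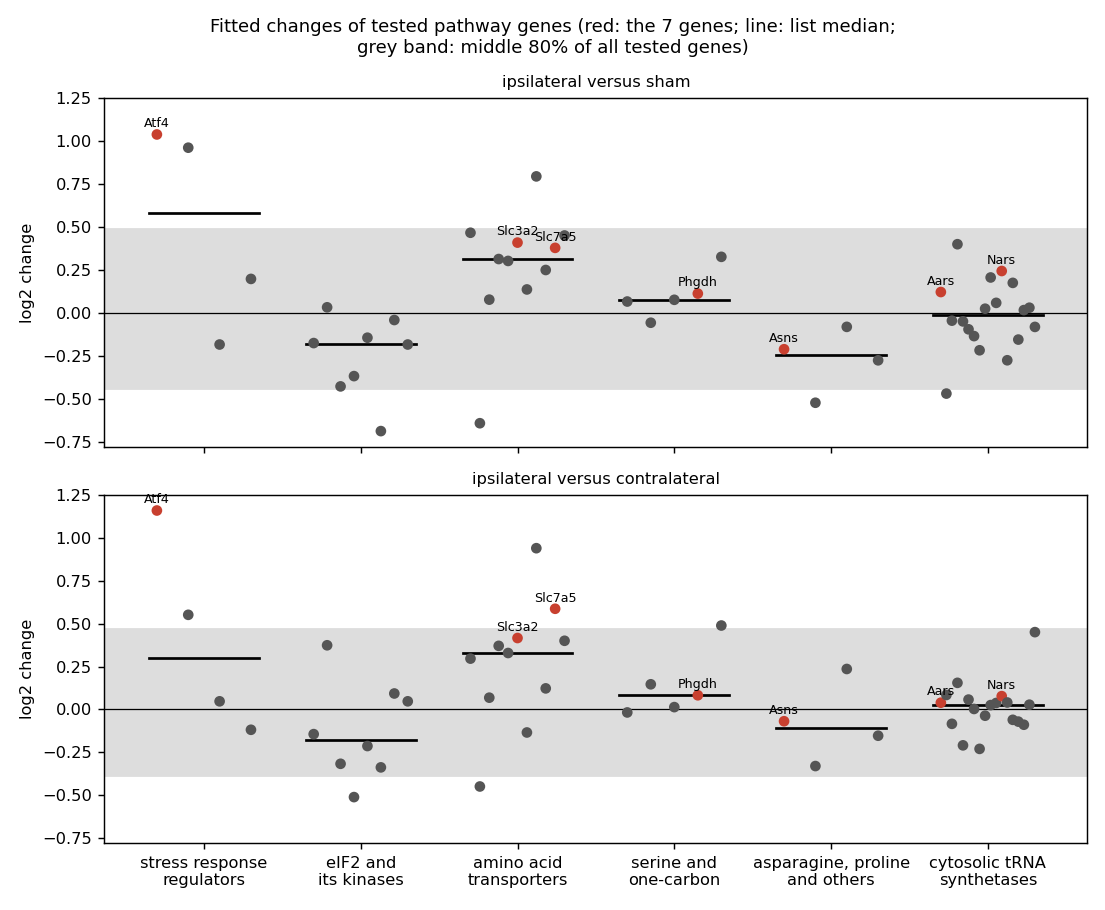
Fitted log2 difference (y axis) of each tested gene of 6 pathway lists (x axis), ipsilateral against sham in the upper panel and against contralateral in the lower one. Points are genes (red: the 7 genes), lines are list medians and the grey band holds the middle 80% of all tested genes. Transporters have a median of 0.31 and 0.33, synthetases of -0.01 and 0.03.

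Markers of some other cell types stood higher in the ipsilateral libraries. Summed over the 9 of 12 oligodendrocyte markers in the table, the level was 2351 to 3001 CPM in sham, 2333 to 3328 in contralateral and 3096 to 7168 in ipsilateral libraries, and 9 of 9 fitted values were above 0 against sham. The 8 of 12 microglia markers in the table summed to 883 to 1170 CPM in sham, 1187 to 1407 in contralateral and 1518 to 2018 in ipsilateral libraries, with 8 of 8 above 0 against sham. Over all tested genes 50.0% were above 0 against sham. By edgeR's adjusted p, 4 of the 9 oligodendrocyte genes passed against contralateral and 0 against sham. Of the 8 microglia genes, 0 passed in either comparison. The shares over all tested genes were 0.365% against contralateral and 0.104% against sham. At an unadjusted p under 0.05 in edgeR, 7 of 9 oligodendrocyte and 6 of 8 microglia genes passed against sham, where 7.72% of all tested genes did. The 4 haemoglobin genes, out of 9 blood markers, summed to 868 to 1289, 551 to 967 and 1013 to 1971 CPM in sham, contralateral and ipsilateral libraries. Of these 4, Hba-a1 and Hba-a2 passed against contralateral (edgeR adjusted p = 0.0104 and 0.0269), where 0.365% of all tested genes passed. All 4 passed there at an unadjusted p under 0.05, where 7.64% of all tested genes did. For ipsilateral against sham cortex 0 of 4 passed at that unadjusted threshold (median 0.26), where 7.72% of all tested genes did. All 4 were lower in contralateral than in sham cortex (median -0.70), where 49.9% of all tested genes were above 0. They passed that threshold there, where 5.74% of all tested genes did. Summed counts were close for Hba-a1 and Hba-a2 (410 and 399) and for Hbb-bs and Hbb-bt (572 and 574). How reads with several matches were counted is not given, so the 4 genes may share reads and are not separate results. Of the markers in the table, the listed astrocyte (14 of 14), microglia, oligodendrocyte and blood genes were above 0 in every library. Of 13 endothelial markers, 2 were in the table. Of 10 markers of striatum, which lies under the cortex, 5 were in the table, with a summed level of 598 to 990.1 CPM in sham, 253 to 826 in contralateral and 277 to 801 in ipsilateral libraries. The part of these cell types in the Atf4, Slc3a2 and transporter values was not tested.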

How the data were processed

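The authors deposited 1 table of whole-number footprint counts per Ensembl transcript, with 1 column for each of the 11 libraries. Per the labels' protocols, cortical tissue went through micrococcal nuclease digestion, monosome purification and immunoprecipitation of the ribosomal protein P0, and the fragments were sequenced on a MiSeq as small RNA libraries. The submitters' processing notes name Bowtie2, edgeR and mm10 with no version or role. How reads were counted (tool, strand, several matches) is not given in the sources used here.

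Of 9784 transcripts, 9736 matched GENCODE vM21, and the other 48 (0.306% of counts) were left out of totals and tests. For each of the 4338 genes the transcript with the most counts was used. Tests were made in edgeR 4.0.16 (R 4.3.3): filterByExpr with a minimum count of 10 (3835 genes kept, 503 removed), TMM factors, and robust quasi-likelihood fits over all 11 libraries, with Benjamini-Hochberg adjustment at 0.05. The common dispersion was 0.0291. Levels are CPM after TMM scaling, and log2 CPM for correlations used a prior count of 2. The fit was also run on simulated data with known changes, and the outcome is not reported here. Intervals on counts are exact Poisson intervals and cover counting error only, since PCR copies are not independent molecules.

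The replicate number is the surgery day per the submitters' design text, so it pairs libraries across groups. Deviations from the group means correlated at -0.139 to 0.224 (median 0.131) over 7 same-number pairs and at -0.255 to 0.260 (median -0.0300) over the 33 others. Alternatives were DESeq2 1.42.0, limma-voom (limma 3.58.1), other scalings, no filter, fits on 2 groups, the day as a block, sums over transcripts, leaving out libraries, and transcript in place of coding length.

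Named were the 7 genes, the 3 tested genes of highest mean CPM in each pathway list, and the 5 genes most like Atf4 and the mean of the 7. Genes named outside this rule are marked, and a few items under it are not reported here. The genes and lists were chosen with earlier results of these data known.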

Additional observations from a re-analysis of the deposited data

Results flagged for a closer look

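In 2 of 14 groups of 4 libraries examined (7 genes, contralateral and ipsilateral), the highest or lowest library stood apart from the other 3 by more than Dixon's 95% limit for its gap as a share of the range. Chance gives about 1 in 20 such groups. Slc7a5 was at 175.9 CPM in ipsilateral replicate 6, against 57.1 to 65.5 CPM in the other ipsilateral libraries (gap share 0.930). Phgdh was at 41.9 CPM in the same library, against 80.1 to 85.7 CPM in the others (0.871), on 5 counts. These deviations run in opposite directions in 1 library.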

How the results depend on the processing

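In 9 alternative settings and 11 fits that each left out 1 library, 0 of those of the 7 genes that had an adjusted p passed 0.05 in any of the 3 comparisons. DESeq2 gave none for Atf4, Slc7a5 and Phgdh against sham or for Atf4 and Phgdh against contralateral. For ipsilateral against sham, the count of the 7 past an unadjusted p of 0.05 went from 1 to 0 under DESeq2, under the replicate block and in the fit of only the 2 groups compared, and ran from 0 to 2 with 1 library left out. Over all genes the adjusted count of 4 became 10 under DESeq2 and ran from 0 (without sham replicate 1) to 22 (without ipsilateral replicate 5). For ipsilateral against contralateral, the count of the 7 went from 2 to 1 under DESeq2, the replicate block, sums over all transcripts and the fit of only the 2 groups compared, and ran from 0 to 3 with 1 library left out. Over all genes the adjusted count of 14 became 7 with sums over all transcripts and 7 without the 2 shallowest libraries, and ran from 3 (without ipsilateral replicate 2) to 26 (without ipsilateral replicate 5). It was also 4 without contralateral replicate 6, 5 without contralateral replicate 1 and 9 without ipsilateral replicate 4. For contralateral against sham the count over all genes was 0, 2 under DESeq2 and 0 to 3 with 1 library left out. The sign of Slc7a5 against contralateral turned without ipsilateral replicate 6 (-0.0597, with a range of -0.0597 to 0.80 over the libraries left out). Smaller fitted values also changed sign with 1 library left out: against contralateral in 1 fit for Asns, 1 for Nars, 2 for Aars and 4 for Phgdh, and against sham in 2 for Phgdh. The replicate block changed no call at the adjusted threshold for the 7 genes. Slc7a5 was not tested in either ipsilateral fit of only the 2 groups, and Atf4 in neither such fit with contralateral cortex, since they missed the filter there. The causes of these shifts were not tested. Depth limits Atf4 most, with 1 to 21 counts in a library.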
